A study of Rattus norvegicus with 12 samples.

Results

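Late disease was compared with early disease in rat liver: arrays from 9 weeks of a carbon tetrachloride cirrhosis model were set against arrays from 3 weeks of the same model. The comparison used 6 of the 12 arrays of the series, chosen by their labels, 3 at 9 weeks and 3 at 3 weeks. All tissue came from the right liver lobe of Sprague-Dawley rats, and both groups had been given carbon tetrachloride. The other 6 arrays, 3 from 6 weeks of the model and 3 from normal liver at 0h, helped to estimate the spread and are placed beside the results. Every sample is labelled as 12 weeks old, and the labels do not say whether that was the age at the start or at collection. The dose, route and hour of the last administration, and the number and sex of the animals, are not given in the sources used here. Per the labels, arrays within a group are technical replicates, so p-values measure the spread between arrays and not between animals.

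Carbon tetrachloride is turned by cytochrome P450 enzymes of hepatocytes, mainly Cyp2e1, into a radical that damages membranes around the central veins. Repeated injury brings waves of neutrophils and macrophages, activates stellate cells to lay down collagen, and drives surviving hepatocytes to divide, until scar bands surround regenerating nodules. Cirrhosis is the late stage of such scarring.

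Expression is given as the authors' scaled signal of the brightest probe set of each gene, a linear brightness. It has no read count, and the number of arrays limits its precision. Signals of different genes come from different probes and are not set against each other. Differences are log2(signal + 16) at 9 weeks minus that at 3 weeks, with the standard error of the fit, and they understate the change of genes near or below a signal of 75.3. "Rose" and "fell" are used for called genes, those with p under 0.05 in limma after Benjamini-Hochberg adjustment over all genes and a difference of at least 1 log2 unit, which is 2-fold. Across probe sets, arrays correlated at 0.974 to 0.977 within 9 weeks, at 0.97 to 0.973 within 3 weeks and at 0.951 to 0.957 between both times. The hepatocyte markers checked the label of the tissue: 15 of 15 were measured, none was called by limma (1 higher and 12 lower at an unadjusted p under 0.05), and albumin (Alb) had signals of 34116, 33477 and 35525 at 9 weeks, against 37915, 38849.5 and 41384 at 3 weeks. Their median difference was -0.28, and it was 0.05 when the arrays were quantile normalized, so no direction is given for them as a group.

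Of 10320 genes tested, 596 (5.78%) were called, 311 (3.01%) as higher and 285 (2.76%) as lower at 9 weeks. Among the called genes 49 rose and 41 fell at least 4-fold, and 10 rose and 12 fell at least 8-fold. The median difference over all genes was 0.06. The 3 arrays of 9 weeks lay wholly above or wholly below the 3 arrays of 3 weeks in 5848 of all genes tested (56.7%) and in 585 of the 596 called genes. At any fold, 4933 genes had an adjusted p under 0.05.

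**Figure D1:**
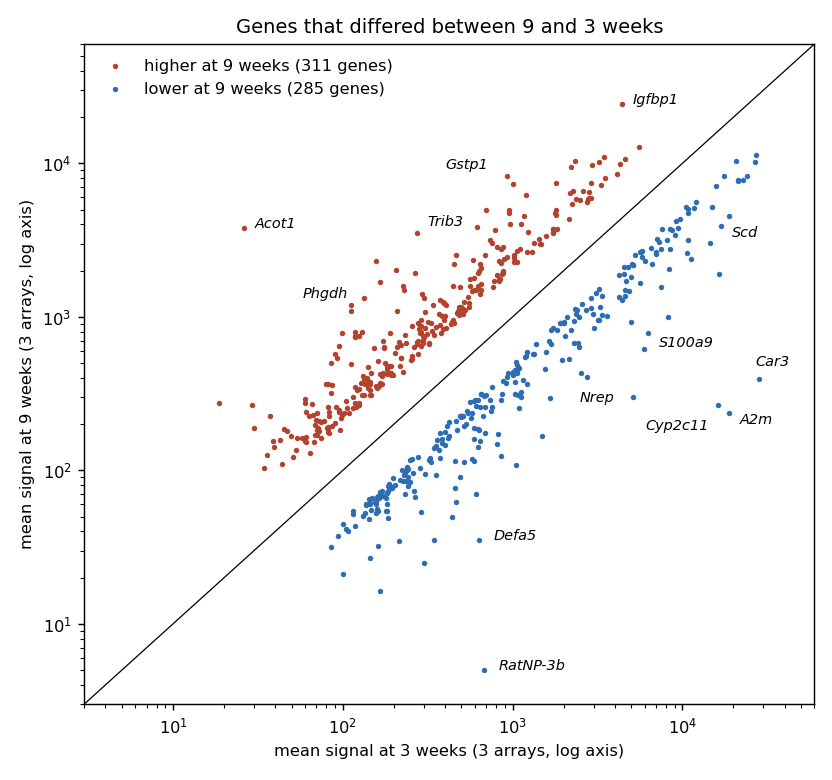
Mean signal at 9 weeks (vertical, log axis) against mean signal at 3 weeks (horizontal, log axis) for the 596 called genes, each point being 1 gene and the line marking equal signals. Genes that rose are red and lie above the line, with Acot1 farthest from it; genes that fell are blue, with A2m, Car3 and Cyp2c11 toward the lower right.

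The steepest fall was that of A2m, alpha-2-macroglobulin, a plasma protease inhibitor that rat liver makes in bulk during acute inflammation. A2m had signals of 254, 214 and 244 at 9 weeks, against 18442, 20020.1 and 18134 at 3 weeks, so that no array of 9 weeks came near those of 3 weeks. The difference was -6.22 ± 0.09 log2 units (adjusted p = 1.35e-17), or 74.6-fold. Car3, carbonic anhydrase 3, had 375, 391 and 424 at 9 weeks, against 26010.5, 28822 and 29778 at 3 weeks, a difference of -6.1 ± 0.13 log2 units (adjusted p = 1.27e-15). Cyp2c11, a steroid hydroxylase typical of the male rat liver, had 227, 267 and 305 at 9 weeks, against 16071, 15998 and 16391 at 3 weeks, a difference of -5.85 ± 0.09 log2 units (adjusted p = 1.35e-17); in the file its probe set is named Cyp2c. In each of the 3 genes every array of 9 weeks lay far below every array of 3 weeks. Nrep, a small intracellular protein linked to wound repair, had 326, 275 and 303 at 9 weeks, against 5039.8, 5237 and 5171 at 3 weeks, a difference of -4.03 ± 0.07 log2 units (adjusted p = 1.86e-16). Ces1d, a carboxylesterase, fell by 9.48-fold to a mean of 617 at 9 weeks, against 5957 at 3 weeks. The others among the 12 largest falls were the sulfotransferase Sult1c3 (-3.1), the acetyltransferase Nat8 (-3.09), the glutathione transferase Gstp3 (-3.02), the histamine-forming enzyme Hdc (-3.05), the red cell chaperone Ahsp (-3.08) and 2 alpha-defensins taken up with the neutrophil genes. The groups did not overlap for any of these genes.

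The steepest rise was that of Acot1, a cytosolic thioesterase that frees fatty acids from coenzyme A. Acot1 had signals of 4076, 3755 and 3543 at 9 weeks, against 19.1, 26.2 and 33.1 at 3 weeks: a transcript near the floor of the arrays at 3 weeks was bright at 9 weeks. The difference was 6.51 ± 0.23 log2 units (adjusted p = 5.27e-13), or 91.1-fold, which rests on very low signals at 3 weeks. Abcb1, the multidrug exporter P-glycoprotein, had 2073, 1983 and 1977 at 9 weeks, against 229.6, 188 and 198 at 3 weeks, a difference of 3.2 ± 0.09 log2 units (adjusted p = 1.89e-14), and its other 2 probe sets gave 1.76 and 1.97. Gucy2c, a receptor guanylate cyclase best known from the gut, had 799.5, 737 and 821 at 9 weeks, against 110, 101 and 85.7 at 3 weeks, a difference of 2.81 ± 0.32 log2 units (adjusted p = 1.55e-06). Isyna1, which makes inositol phosphate from glucose 6-phosphate, had 2009, 1962 and 1835 at 9 weeks, against 278, 237 and 284 at 3 weeks, a difference of 2.79 ± 0.1 log2 units (adjusted p = 8.87e-13). Locus names were left out of the 12 largest rises and the 12 largest falls, and each gene had a signal of at least 200 in the brighter group. The remaining members of the 12 largest rises were Trib3, Phgdh and Fgf21 of the amino acid response, Akr1b8 and Gstp1 of detoxication, Igfbp2 of the growth factor system, the immunoglobulin heavy chain IgG-2a and the protease Fam111a, each given with its group. None of the 12 had overlapping arrays.

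**Figure D2:**
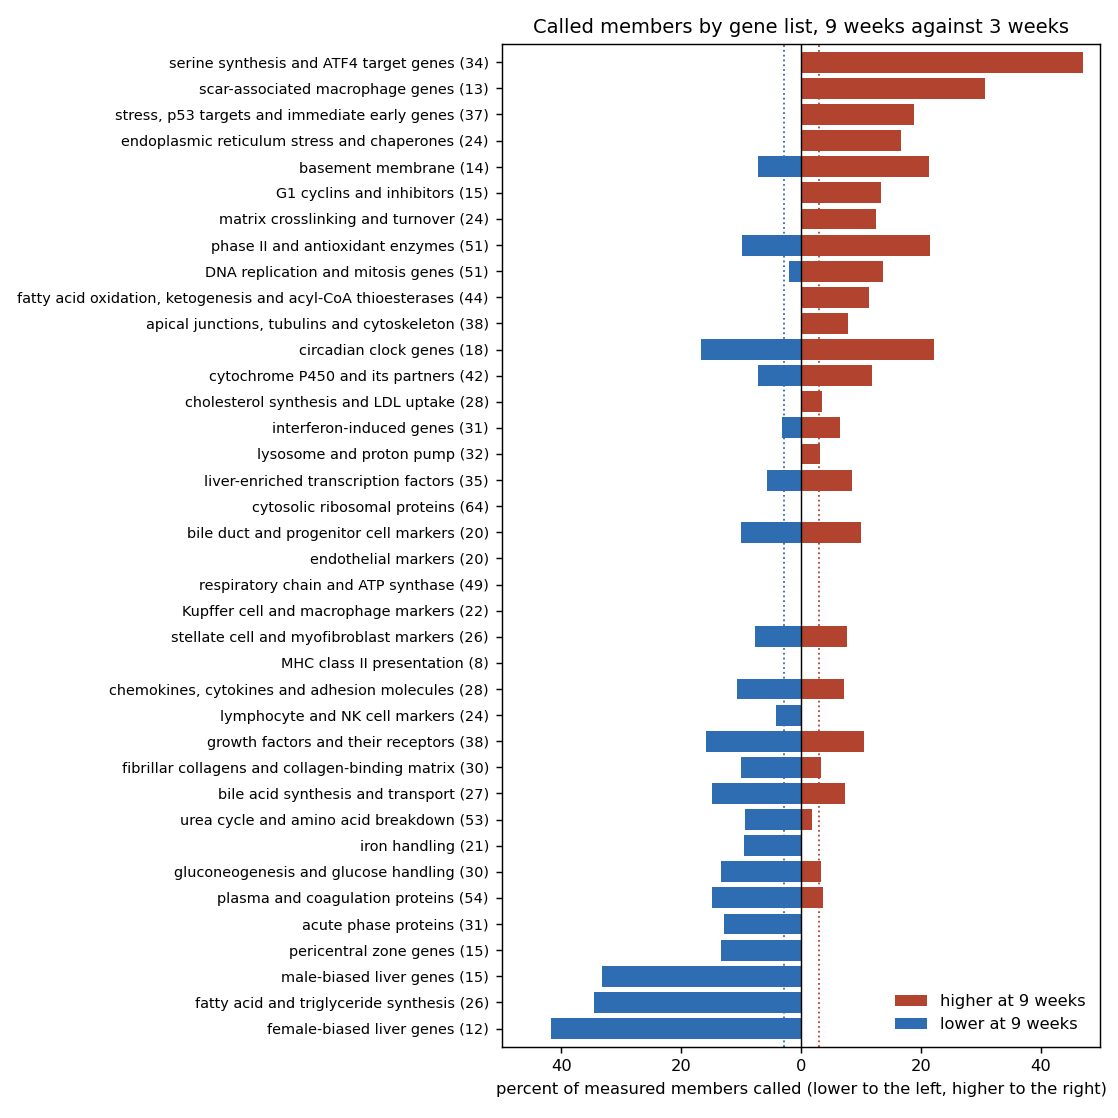
Percent of the measured members of each gene list (number in brackets; lists of hepatocyte identity, blood cell, pancreas and other tissue markers are not drawn) that were called higher (red, to the right) and lower (blue, to the left) at 9 weeks; the dotted lines mark the 3.01% and 2.76% of all genes called in each direction. Of the lists drawn, serine synthesis and ATF4 target genes reach farthest to the right, and female-biased genes, fatty acid and triglyceride synthesis and male-biased genes farthest to the left.

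In all, 1100 of the genes tested belonged to at least 1 of 42 lists of pathways and cell types; 90 of them rose, 77 fell and 933 were not called. Counts below are out of the members that passed the filter on dim probe sets. They stand beside the 3.01% of all genes called higher and the 2.76% called lower, and some lists lie near those shares. Many hepatocyte genes that growth hormone sets differently in males and females fell. The pulses of growth hormone in male rats act through Stat5b to switch on genes such as Cyp2c11, and the steadier level of females favours others. Of 15 male-biased genes measured 0 rose and 5 fell (median difference -0.65, and -0.43 after quantile normalization). Beside Car3 and Cyp2c11 these were Srd5a1, which reduces testosterone, with 3197, 2837 and 3051 at 9 weeks, against 14188, 13849.5 and 15639.9 at 3 weeks (-2.26 ± 0.05 log2 units, adjusted p = 4.88e-15), the odorant-binding protein Obp3 (-2.13) and the transporter Ust5r (-1.42). Obp3 had a mean of 11565 in normal liver at 0h, 290 at 3 weeks and 53.9 at 9 weeks. It was thus already far below normal liver at 3 weeks, and its signal at 9 weeks lies below 75.3. Of 12 female-biased genes 5 fell as well and none rose (median -0.33, and -0.08 after quantile normalization). They were Srd5a1, the hydroxyacid oxidase Hao2 (-2.23), the aldo-keto reductase Akr1b7 (-1.73), Cyp3a9 (-1.59) and the prolactin receptor Prlr (-1.28). The Prlr call rests on its brightest probe set: with the mean of its kept probe sets the difference was -0.58 and was not called. Srd5a1 stands in both lists, so the counts share a gene; it is known as higher in female rat liver, and without it 4 of 14 male-biased genes fell (median -0.5), a count added after the data were seen. A1bg, a plasma protein known as female-biased in rat liver, was not called and stood at a mean signal of 230.2 at 9 weeks and 131 at 3 weeks, against 25852 in normal liver at 0h.

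Of the growth hormone system itself, some genes were called and others were not. Ghr, the growth hormone receptor, had 4687, 4807 and 4818 at 9 weeks, against 8740, 9765 and 9588 at 3 weeks, a difference of -0.97 ± 0.05 log2 units that was just short of 2-fold. The other probe set of Ghr gave -1.98 ± 0.06, and Ghr was called under 2 of 17 alternative settings. Igf1, the main hormone that growth hormone makes the liver secrete, had 11433, 10963 and 11679 at 9 weeks, against 26297, 27567 and 28119 at 3 weeks, a fall of 2.4-fold (-1.27 ± 0.05 log2 units, adjusted p = 3.28e-12). Its carriers in plasma fell with it: Igfals, the acid-labile subunit, by 2.76-fold (-1.47) and Igfbp3, the chief binding protein, by 2.52-fold (-1.33). The binding proteins known to rise in fasting and stress were higher. Igfbp1 had 24579, 23445 and 25380.2 at 9 weeks, against 4483, 4375 and 4361 at 3 weeks, a difference of 2.47 ± 0.05 log2 units (adjusted p = 1e-15). Igfbp2 had 5024, 4996 and 4892 at 9 weeks, against 633, 695 and 760 at 3 weeks, a difference of 2.81 ± 0.07 log2 units (adjusted p = 1.53e-14). Cish, a feedback inhibitor induced by Stat5, fell (-1.13), whereas Socs2 (-0.35) and Stat5b (-0.42) were not called.

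Cytochrome P450 enzymes did not move as 1 block. Of 42 measured P450 genes and partners 5 rose and 3 fell (median -0.25, and -0.06 after quantile normalization). Cyp1a1 and Cyp1a2, both targets of the aryl hydrocarbon receptor, went in opposite directions: Cyp1a1 had 726, 762 and 746 at 9 weeks, against 143, 168 and 44.1 at 3 weeks (2.65 ± 0.3 log2 units, adjusted p = 1.12e-06), and Cyp1a2 had 4601, 4690.1 and 4274 at 9 weeks, against 20733, 17274 and 18772 at 3 weeks (-2.06 ± 0.06 log2 units, adjusted p = 1.48e-13). Cyp1a1 varied between the arrays of 3 weeks, where 1 was far below the other 2. Cyp17a1, of steroid synthesis, rose (1.84), as did the fatty acid hydroxylases Cyp4b1 (1.79) and Cyp4a8 (1.73) and the receptor CAR, Nr1i3 (1.03, and 0.99 without the third array of 9 weeks, which ended its call). Cyp2e1, which activates carbon tetrachloride, was not called and had 29986, 27577 and 31058 at 9 weeks, against 31827, 31223 and 33928 at 3 weeks. Of 15 pericentral genes, those of the zone where the solvent does its damage, 2 fell, Cyp1a2 and the ornithine aminotransferase Oat (-2.0), and glutamine synthetase Glul overlapped between the groups (0.07).

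Genes of fatty acid and triglyceride synthesis were lower in many cases. Of 26 measured members 9 fell (34.6%, against 2.76% of all genes) and none rose, with a median of -0.83. Scd, the desaturase that makes oleate, had signals of 3958, 3935 and 3782 at 9 weeks, against 16283, 17262 and 17141 at 3 weeks, a difference of -2.11 ± 0.04 log2 units (adjusted p = 6.34e-16). Fasn, fatty acid synthase, had 3376, 3599 and 3316 at 9 weeks, against 9254, 8946 and 9104 at 3 weeks (-1.4 ± 0.07 log2 units, adjusted p = 2.7e-11). Each array of 9 weeks lay below every array of 3 weeks for both. The chain-elongating enzyme Elovl5 had 591, 691 and 642 at 9 weeks, against 2672, 2268 and 2486 at 3 weeks, a difference of -1.92 ± 0.08 log2 units (adjusted p = 4.89e-12). Pklr, liver pyruvate kinase, which feeds carbon from glucose into lipid synthesis, fell by 3.53-fold (-1.82). Thrsp (-1.46), Elovl6 (-1.39), the acyltransferase Gpam (-1.28) and the citrate-cleaving enzyme Acly (-1.16) fell too. Srebf1, the transcription factor of this programme, was at 2651, 2548 and 2438 at 9 weeks, against 5066, 5048 and 4642 at 3 weeks, a difference of -0.95 ± 0.06 log2 units that did not reach 2-fold. The triglyceride-forming enzyme Dgat2 (-0.9) was likewise not called, and malic enzyme Me1 (0.19) and Lpin1 (0.65) lay on the positive side.

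Fatty acid breakdown changed at a few steps. Of 44 measured genes of oxidation, ketogenesis and acyl-CoA thioesterases 5 rose and none fell, and the median difference was -0.02, or 0.08 after quantile normalization. Cpt1a, the carnitine transferase that admits fatty acids to mitochondria, had 6475, 6138 and 6139.8 at 9 weeks, against 1058, 1374 and 1175 at 3 weeks, a difference of 2.37 ± 0.08 log2 units (adjusted p = 2.42e-13). Its other probe set gave 1.24. The mean of Cpt1a in normal liver at 0h was 7486, so 9 weeks did not exceed normal liver. Acot2, the mitochondrial relative of Acot1, had 5006, 4958 and 4958 at 9 weeks, against 1045, 994 and 828 at 3 weeks, a difference of 2.37 ± 0.08 log2 units (adjusted p = 3.12e-13). Fgf21, a hormone of fasting and stress, and the isomerase Eci1 (1.2; 0.86 and not called with the mean of its kept probe sets) made up the 5.

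**Figure D3:**
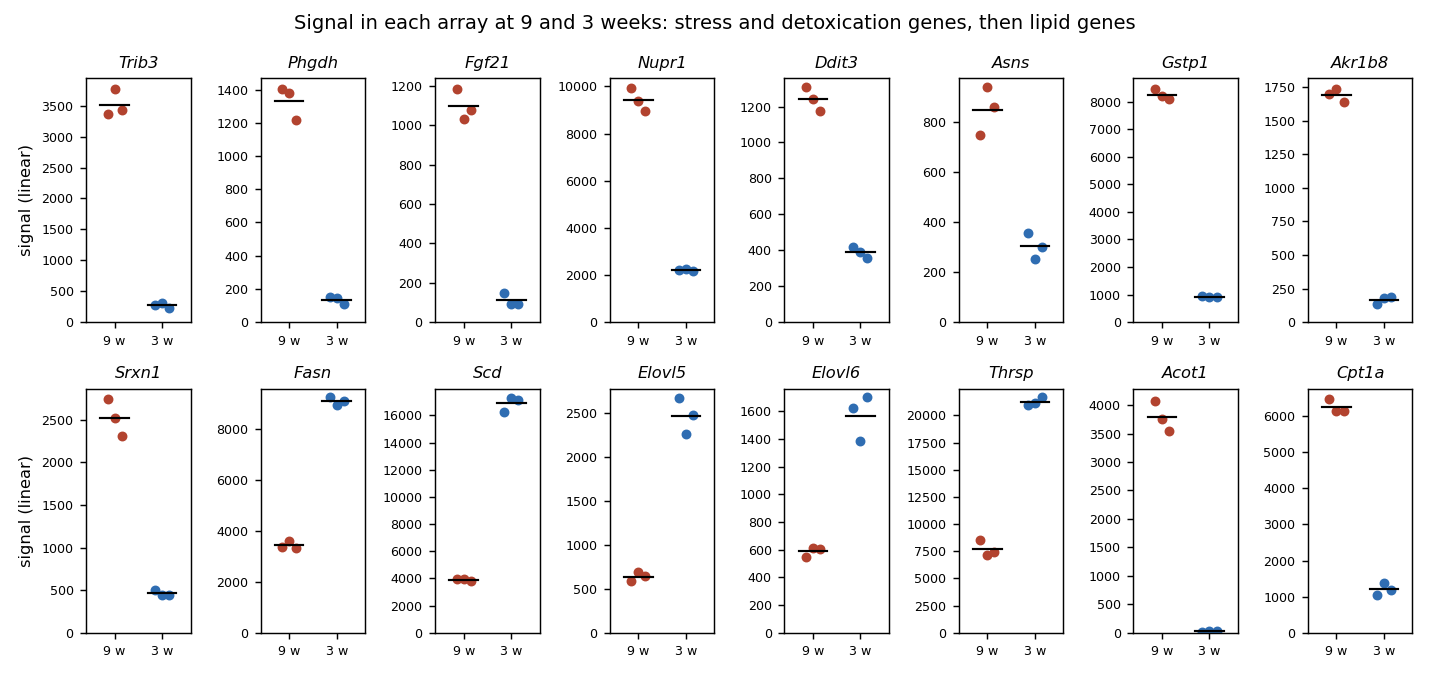
Signal (linear axis from 0) of 16 genes in each of the 3 arrays at 9 weeks (red, left) and at 3 weeks (blue, right), with a bar at each mean; the upper row and Srxn1 are stress and detoxication genes, and the rest are lipid genes. The 3 arrays of each time lie close together, and no panel shows an overlap.

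Of 27 bile acid genes 4 fell (14.8%) and 2 rose (7.41%). Cyp8b1, which sets the ratio of cholic acid, had 4482, 4614 and 4525 at 9 weeks, against 1227, 1131 and 1167 at 3 weeks, a difference of 1.94 ± 0.04 log2 units (adjusted p = 2.01e-15), and Abcb4, the phospholipid exporter of the bile canaliculus, had 3663, 3489.6 and 3585 at 9 weeks, against 1142, 1253 and 1324 at 3 weeks (1.52 ± 0.07 log2 units, adjusted p = 7.7e-12). In normal liver at 0h the mean of Cyp8b1 was 10762, above its 4540 at 9 weeks. That of Abcb4 was 2410, below its 3579 at 9 weeks. The side-chain oxidase Acox2 (-1.19), the racemase Amacr (-1.08) and the organic anion transporters Slc22a8 (-1.11) and Slc22a7 (-1.05) fell. Quantile normalization ended the call of Amacr (-0.91), and centring each array on its median ended that of Slc22a7 (-0.98). Cyp7a1, which starts the classical route to bile acids, was not called (0.09), nor was the bile salt pump Abcb11 (0.08).

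Of 53 genes of amino acid breakdown 5 fell (9.43%) and 1 rose (1.89%, against 3.01% of all genes). Oat had 2190.1, 2101 and 1900.1 at 9 weeks, against 8527, 8534 and 7901 at 3 weeks, a difference of -2.0 ± 0.07 log2 units (adjusted p = 2.66e-13). Histidine ammonia lyase Hal (-1.81), the tryptophan pathway enzyme Acmsd (-1.44), glycine methyltransferase Gnmt (-1.43) and the urea cycle enzyme Otc (-1.16) fell as well. The urea cycle enzyme Asl rose (1.05; 0.94 and not called with the mean of its kept probe sets), while Cps1 (-0.28), Ass1 (-0.11) and Arg1 (-0.02) were not called. Asl had a mean of 8643 in normal liver at 0h and 8533 at 9 weeks, so 9 weeks did not exceed normal liver. In glucose handling 4 of 30 fell, among them Pklr and liver glycogen phosphorylase Pygl (-1.24). Pck2, the mitochondrial PEP carboxykinase and a known target of the amino acid response, had 989.6, 1048 and 1079.6 at 9 weeks, against 392, 342 and 377 at 3 weeks (1.45 ± 0.11 log2 units, adjusted p = 1.41e-08), whereas cytosolic Pck1 was not called (-0.27).

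Of 54 secreted plasma proteins 8 fell (14.8%) and 2 rose (3.7%), and 48 had a negative difference (median -0.46, and -0.27 after quantile normalization). C6, a complement component, had 1753, 1484 and 1482 at 9 weeks, against 7604, 7578 and 7152 at 3 weeks, a difference of -2.24 ± 0.07 log2 units (adjusted p = 6.6e-14), and the apolipoprotein Apoa4 had 2923, 2552 and 2405 at 9 weeks, against 10302, 10652 and 11095 at 3 weeks (-2.02 ± 0.07 log2 units, adjusted p = 4.14e-13). The mannose-binding lectins Mbl1 (-1.15) and Mbl2 (-1.24) and the HGF activator Hgfac (-1.15) fell beside Igf1, Igfals and Igfbp3. The 2 that rose were Igfbp1 and Igfbp2. Of 35 liver-enriched transcription factors and their partners 3 rose (8.57%) and 2 fell (5.71%). Klf6, a zinc finger factor of injured liver, had 957, 975 and 919.8 at 9 weeks, against 255, 266 and 345 at 3 weeks (1.68 ± 0.11 log2 units, adjusted p = 1.4e-09), and Klf9 rose on its brightest probe set (1.1) but not on the mean of its probe sets (0.8). Onecut1, a hepatocyte and bile duct factor, fell (-1.29). Hnf4a, the central hepatocyte factor, was at 565, 465 and 562 at 9 weeks, against 1029, 1145 and 999 at 3 weeks, a difference of -0.98 ± 0.08 log2 units; it was not called here and was called under 5 of 17 alternative settings.

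Serine synthesis and ATF4 target genes were higher in many cases. ATF4 is a transcription factor whose translation increases when amino acids run short, when the endoplasmic reticulum is overloaded or when mitochondria fail; it switches on genes for making and importing amino acids and the pro-death factor CHOP, encoded by Ddit3. Many of its targets carry a composite C/EBP-ATF element, whose core is TGATGNAA, near their start. The promoters of 4 genes of the list that rose are shown because that core lies in each of them. They are from RefSeq (GRCr8), run from 250 bases before to 50 bases after the annotated start, are written 5′ to 3′ on the gene's own strand, and carry the match in capitals; in all 4 the capitals read as the core on the opposite strand.

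Trib3: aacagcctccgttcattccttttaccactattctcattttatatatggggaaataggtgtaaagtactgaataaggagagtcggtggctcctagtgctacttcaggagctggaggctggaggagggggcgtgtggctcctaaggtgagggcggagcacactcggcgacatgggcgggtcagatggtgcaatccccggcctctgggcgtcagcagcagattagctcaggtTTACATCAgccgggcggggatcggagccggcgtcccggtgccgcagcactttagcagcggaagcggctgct

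Fgf21: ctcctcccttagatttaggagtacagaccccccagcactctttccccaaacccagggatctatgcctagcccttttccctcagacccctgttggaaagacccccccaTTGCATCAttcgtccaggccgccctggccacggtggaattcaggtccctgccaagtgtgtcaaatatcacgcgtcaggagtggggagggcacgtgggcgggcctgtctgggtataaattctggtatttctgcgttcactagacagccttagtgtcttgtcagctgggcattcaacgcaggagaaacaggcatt

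Nupr1: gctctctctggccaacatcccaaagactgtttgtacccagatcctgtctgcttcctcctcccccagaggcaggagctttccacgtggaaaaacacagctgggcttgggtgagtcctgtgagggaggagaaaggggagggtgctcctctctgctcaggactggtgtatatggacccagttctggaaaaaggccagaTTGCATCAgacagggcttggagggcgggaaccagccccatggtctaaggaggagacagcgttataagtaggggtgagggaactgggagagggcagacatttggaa

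Chac1: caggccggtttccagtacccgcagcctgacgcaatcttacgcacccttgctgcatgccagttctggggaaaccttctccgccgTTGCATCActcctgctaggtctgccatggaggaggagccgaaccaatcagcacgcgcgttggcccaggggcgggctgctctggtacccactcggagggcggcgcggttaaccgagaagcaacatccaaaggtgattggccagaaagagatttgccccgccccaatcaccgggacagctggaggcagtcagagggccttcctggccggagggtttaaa

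These windows are chr3:161275484-161275783 (minus strand) for Trib3, chr1:105221327-105221626 (minus) for Fgf21, chr1:190645852-190646151 (minus) for Nupr1 and chr3:126795881-126796180 (plus) for Chac1. The match begins 21, 143, 55 and 167 bases before the start. On either strand the core was present in 1332 of 33469 RefSeq promoter windows of the same length (3.98%). It was present in 5 of the 16 called genes of the list, the fifth being Slc7a1, and in 3 of its 15 measured genes with a window that were not called. A match is a description of letters and not a binding site, and the absence of one concerns this window alone.

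Of 34 measured members 16 rose (47.1%, against 3.01% of all genes) and none fell, with a median of 0.87. Trib3, a pseudokinase that feeds back on this response, had 3363, 3764 and 3428 at 9 weeks, against 284, 314 and 223 at 3 weeks, a difference of 3.62 ± 0.09 log2 units (adjusted p = 1.25e-14), and its other 2 probe sets gave 4.17 and 4.8. Phgdh, the first enzyme of serine synthesis, had 1403, 1381 and 1214 at 9 weeks, against 151, 144 and 106 at 3 weeks, a difference of 3.18 ± 0.14 log2 units (adjusted p = 1.13e-11). Every array of 9 weeks lay far above those of 3 weeks for both. Psat1, the next enzyme of that pathway, had 718, 631 and 627 at 9 weeks, against 232, 212 and 219 at 3 weeks (1.51 ± 0.1 log2 units, adjusted p = 1.15e-09). Fgf21 had 1184, 1034 and 1078 at 9 weeks, against 149.9, 91.9 and 91.7 at 3 weeks, a difference of 3.16 ± 0.22 log2 units (adjusted p = 3.59e-09). Nupr1, a small stress-induced chromatin protein, was already bright at 3 weeks and had 9949.6, 9387 and 8940.3 at 9 weeks, against 2208, 2234 and 2183 at 3 weeks (2.08 ± 0.05 log2 units, adjusted p = 1.73e-15). Ddit3 had 1309, 1241 and 1174 at 9 weeks, against 419, 392 and 357 at 3 weeks, a difference of 1.64 ± 0.09 log2 units (adjusted p = 2.38e-10), and the phosphatase subunit Ppp1r15a, which restarts translation, rose by 1.42. Asns, asparagine synthetase, had 747, 939.9 and 859.8 at 9 weeks, against 357, 254 and 300 at 3 weeks (1.44 ± 0.13 log2 units, adjusted p = 1.37e-07), and Slc7a11, the cystine importer, had 362, 368 and 359 at 9 weeks, against 113, 45.1 and 79.5 at 3 weeks (2.06 ± 0.26 log2 units, adjusted p = 4.93e-06).

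The amino acid carriers Slc3a2 (1.41) and Slc7a1 (1.34), the lipoprotein receptor Vldlr (1.36) and the factor Atf5 (1.21) rose as well. Chac1, which degrades glutathione, rose by 1.03, with 0.96 and no call without the second array of 3 weeks. Gdf15, a stress hormone, had 182, 196 and 161 at 9 weeks, against 126, 78.9 and 12.3 at 3 weeks (1.43 ± 0.4 log2 units, adjusted p = 0.00751); the third array of 3 weeks was far below the other 2, and without it the difference was 0.75 and was not called. Slc38a2, a glutamine carrier, rose by 1.01, with 0.99 without the first array of 9 weeks and 0.96 without the third of 3 weeks, neither of them called. Atf4 itself was not called and had 9775, 9379.8 and 9377 at 9 weeks, against 5611, 6045 and 5800.3 at 3 weeks (0.71). The count of 16 was 14 without the third array of 3 weeks, 15 without the second of 3 weeks or the first of 9 weeks, and 16 without any other. The lowest count under any alternative was 13. Adding 64 in place of 16 to each signal ended the calls of Chac1 (0.94), Gdf15 (0.93) and Slc38a2 (0.99).

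The unfolded protein response of the endoplasmic reticulum gave fewer calls. Of 24 measured genes 4 rose, none fell and 21 had a positive difference (median 0.52). Selenos, a selenoprotein of the degradation machinery, had 7876, 7427 and 7199 at 9 weeks, against 1842, 1904 and 1662 at 3 weeks (2.05 ± 0.07 log2 units, adjusted p = 2.7e-13). Herpud1, which serves the same machinery, had 6615, 6778 and 6410 at 9 weeks, against 2296, 2347 and 2160.2 at 3 weeks (1.54 ± 0.05 log2 units, adjusted p = 1.07e-13). The co-chaperone Dnajb9 (1.03) and the sensor Atf6 (1.01) rose too, and neither was called without the third array of 3 weeks (0.98 and 0.99), so that 2 of the 4 calls were left. Without the first array of 9 weeks Atf6 was at 0.96 and not called, and its second probe set gave -0.38. The chaperone Hspa5 was not called (0.38), and Xbp1 lay on the negative side (-0.66).

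Detoxifying and antioxidant enzymes split. Of 51 measured 11 rose (21.6%) and 5 fell (9.8%), and the median was -0.1, or 0.07 after quantile normalization. Akr1b8, an aldo-keto reductase of the kind induced in liver tumours, had 1701, 1735 and 1637 at 9 weeks, against 133, 179 and 188 at 3 weeks, a difference of 3.24 ± 0.15 log2 units (adjusted p = 1.85e-11). Gstp1, the placental form of glutathione transferase and a classical marker of altered foci in rat liver, had 8465, 8192 and 8105 at 9 weeks, against 943, 926 and 902 at 3 weeks, a difference of 3.14 ± 0.05 log2 units (adjusted p = 1.13e-16). Gstm4 had 1395, 1468 and 1613 at 9 weeks, against 218, 181 and 289.8 at 3 weeks (2.64 ± 0.31 log2 units, adjusted p = 2.2e-06). Srxn1, sulfiredoxin, a target of the oxidant sensor NRF2, had 2743, 2519 and 2306 at 9 weeks, against 497, 449 and 442 at 3 weeks (2.41 ± 0.09 log2 units, adjusted p = 2.41e-12). The aflatoxin aldehyde reductase Akr7a3 (2.15), Slc7a11, the glutathione peroxidases Gpx3 (1.97) and Gpx2 (1.63), the exporter Abcc3 (1.73) and the epoxide hydrolase Ephx2 (1.14) rose. The exporter Abcc4 rose by 1.09, and was not called without the third array of 9 weeks (0.93).

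NRF2 acts through the antioxidant response element, whose core is TGACNNNGC. The Gstp1 promoter of RefSeq (GRCr8, chr1:210769656-210769955, minus strand, 250 bases before to 50 after the start, 5′ to 3′) is shown because it carries that core, in capitals, from 61 bases before the start; the match also holds the letters of an AP-1 site.

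Gstp1: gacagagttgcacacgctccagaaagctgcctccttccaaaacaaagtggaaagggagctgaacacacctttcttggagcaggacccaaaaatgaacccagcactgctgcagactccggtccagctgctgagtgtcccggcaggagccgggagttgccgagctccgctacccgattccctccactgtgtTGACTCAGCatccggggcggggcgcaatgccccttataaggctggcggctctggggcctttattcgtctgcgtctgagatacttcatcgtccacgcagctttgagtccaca

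On either strand that core was present in 4038 of 33469 windows (12.1%), in 2 of the 9 genes of this list that rose and have a window, Gstp1 and Gpx2, and in 5 of the 33 others. Other NRF2 targets were not called: the quinone reductase Nqo1 (0.8) and thioredoxin reductase Txnrd1 (0.65) lay on the positive side, and heme oxygenase Hmox1 (-0.58) and Gclc, of glutathione synthesis (-0.33), on the negative. The 5 that fell were Sult1c3, with 1750, 2103 and 1843 at 9 weeks, against 15178, 16402 and 17665 at 3 weeks (-3.1 ± 0.06 log2 units, adjusted p = 1e-15), the aldehyde dehydrogenases Aldh1b1 (-1.81) and Aldh1a7 (-1.24), Akr1b7, and the glucuronosyltransferase Ugt2b1 (-1.1; -1.0 and not called after quantile normalization). Gstp1 and Gstp3, 2 members of the same pi class, thus went opposite ways: Gstp3 had 1113, 984 and 912 at 9 weeks, against 8306, 8277 and 8042 at 3 weeks. Near-identical paralogs can share probes, so values of single members of the Gstp, Akr1b, Cyp2c and Acot families are uncertain in that respect.

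General stress genes rose in 7 of 37 cases and fell in none (median 0.54). Atf3, a stress-induced repressor, had 518, 506 and 482 at 9 weeks, against 102, 74.8 and 78.8 at 3 weeks (2.36 ± 0.32 log2 units, adjusted p = 1.17e-05). The immediate early factor Egr1 had 1189.9, 1201 and 1282 at 9 weeks, against 382, 384 and 423 at 3 weeks (1.59 ± 0.07 log2 units, adjusted p = 1.16e-11), and the small heat shock protein Hspb1 had 1882, 1869.5 and 1659.6 at 9 weeks, against 571, 548 and 651 at 3 weeks (1.59 ± 0.09 log2 units, adjusted p = 4.19e-10). Gadd45a (1.37), a p53 target that slows the cell cycle, the phosphatase Dusp1 (1.31) and Jund (1.19) rose. Cdkn1a, the p53-induced inhibitor p21, had 1673, 1915 and 1711 at 9 weeks, against 856, 1055 and 633 at 3 weeks (1.07 ± 0.16 log2 units, adjusted p = 3.64e-05), and without the third array of 3 weeks it was at 0.88 and not called. The p53 targets Mdm2 (0.74) and Bax (0.58) were not called.

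Some genes of DNA replication and mitosis rose. Of 51 measured 7 rose, 1 fell and 39 had a positive difference (median 0.5). Cdkn3, a phosphatase of dividing cells, had 344, 384 and 364 at 9 weeks, against 97.4, 26.4 and 121 at 3 weeks (2.13 ± 0.29 log2 units, adjusted p = 1.43e-05), the mitotic kinase Plk1 had 121, 137 and 118 at 9 weeks, against 57.2, 28.4 and 21.6 at 3 weeks (1.51 ± 0.27 log2 units, adjusted p = 0.000209), and Ect2, of cell division, rose by 1.24. Rrm2, of nucleotide supply, rose by 1.37 on its brightest probe set and stood at 0.0 on its second; with the mean of both it was at 0.69 and not called. Cdc20, Ube2c and Cks1b rose by 1.06, 1.05 and 1.03, and each lost its call when 1 array was left out. Without the second array of 3 weeks Cdc20 and Cks1b were at 0.88 and 0.99; without the third array of 9 weeks or of 3 weeks Ube2c was at 0.94 and 0.86; without the second of 9 weeks Cks1b was at 0.99. Cdc25b fell (-1.05), with -0.8 and no call without the first array of 9 weeks. Mki67, the standard proliferation marker, was at 263, 256 and 229 at 9 weeks, against 105, 134 and 131 at 3 weeks (0.93 ± 0.16 log2 units) and was not called; Ccna2 (0.93), Cdk1 (0.92) and Ccnb1 (0.87) also fell short of 2-fold, and Pcna overlapped (-0.05). The signals of these genes were low, and adding 64 in place of 16 to each signal left 3 calls of the 7. Among G1 genes Ccnd1, cyclin D1, had 2671, 2707 and 3194 at 9 weeks, against 815, 786 and 826 at 3 weeks (1.8 ± 0.08 log2 units, adjusted p = 1.96e-11); it and Cdkn1a were the 2 of 15 that rose.

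Of 38 growth factors and receptors 4 rose (Fgf21, Igfbp2, Igfbp1 and Gdf15) and 6 fell. Fst, follistatin, which binds activins, had 153, 75.1 and 129 at 9 weeks, against 612, 610.4 and 514 at 3 weeks (-2.18 ± 0.28 log2 units, adjusted p = 6.46e-06). The activin subunits Inhbc (-1.85) and Inhba (-1.26) fell with it, as did Gas6, a ligand that helps clear dead cells (-1.76, with other probe sets at 0.71 and -1.58; -0.88 and not called with the mean of its kept probe sets). Hgf, the main hepatocyte mitogen, was low at both times (88.0, 55.4 and 82.3 at 9 weeks, against 179, 117 and 157 at 3 weeks) and not called, and Egfr was not called (-0.81). Tgfb1, the main fibrogenic cytokine, was at 359, 387 and 365 at 9 weeks, against 272, 222 and 269 at 3 weeks and not called (0.52).

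Genes of the acute phase, the plasma proteins and receptors that liver makes in inflammation, gave falls and no rise. Of 31 acute phase genes 4 fell (12.9%), none rose and 28 had a negative difference (median -0.46). After quantile normalization the median was -0.16, and 1 gene was called higher beside 4 lower. Besides A2m, Lcn2, a siderophore-binding protein of inflamed liver, had 399, 422 and 476 at 9 weeks, against 2514, 2628 and 2421 at 3 weeks, a difference of -2.5 ± 0.07 log2 units (adjusted p = 1.29e-14). Il1r1, the receptor of interleukin 1, had 110.1, 77.8 and 81.8 at 9 weeks, against 471, 476 and 522 at 3 weeks (-2.27 ± 0.12 log2 units, adjusted p = 1.42e-10), and the secreted phospholipase Pla2g2a had 261, 212 and 238 at 9 weeks, against 570, 625 and 547 at 3 weeks (-1.24 ± 0.21 log2 units, adjusted p = 9.03e-05). The acute phase plasma proteins Hp (-0.27), Orm1 (-0.37), Crp (-0.58) and Fgg (-0.41) were not called. Of 28 chemokines, cytokines and adhesion molecules 3 fell and 2 rose. Cxcl1, which draws neutrophils, had 941, 953 and 879 at 9 weeks, against 4509.9, 5347 and 5100.2 at 3 weeks, a difference of -2.41 ± 0.07 log2 units (adjusted p = 8.76e-14). Cxcl12 (-1.42, with other probe sets at -1.17 and -2.56) and the lymphoid chemokine Ccl21 (-1.11) fell. Cxcl14 had 282, 274 and 241 at 9 weeks, against 29.0, 17.0 and 41.6 at 3 weeks (2.67 ± 0.24 log2 units, adjusted p = 9.73e-08). Cx3cl1, fractalkine, rose by 1.09, but without the first array of 3 weeks it was at 0.6 and not called. Ccl2, which recruits monocytes, was not called (0.9).

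Defensins and calprotectin, known products of neutrophils, were lower in 4 called genes. RatNP-3b, an alpha-defensin of rat neutrophils, had 3.2, 4.1 and 7.7 at 9 weeks, against 634, 758 and 645 at 3 weeks, and Defa5, another alpha-defensin, had 45.3, 13 and 48.0 at 9 weeks, against 673, 634 and 589 at 3 weeks. The signals of both at 9 weeks lie below 75.3 and have little meaning as levels. The differences were -5.05 ± 0.22 log2 units (adjusted p = 8.47e-12) and -3.74 ± 0.26 log2 units (adjusted p = 3e-09). S100a9 and S100a8, which form calprotectin in neutrophils and monocytes, had a fall of 7.81-fold (782, 775 and 803 at 9 weeks, against 6084, 6442 and 6233 at 3 weeks) and of 6.61-fold (-2.72). Red cell transcripts lay lower beside them. The list of 8 red cell and granulocyte markers had 5 called lower, none higher and 8 of 8 negative (median -1.56), with a summed signal of 33722 to 35597 at 9 weeks and 64721 to 68390 at 3 weeks. Ahsp (47.6, 19.1 and 7.6 at 9 weeks, against 286, 344 and 277 at 3 weeks), the anion exchanger Slc4a1 (-1.87) and the heme enzyme Alas2 (-1.25) fell, and beta-globin Hbb was at 12736, 12635 and 13038 at 9 weeks, against 23795, 25244 and 25334 at 3 weeks and not called (-0.95). None of the 8 was at 0. In bulk tissue fewer cells of a type and less RNA per cell cannot be told apart, and the share of blood in the pieces was not tested.

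Macrophage genes were held in a pair of lists. Of 22 Kupffer cell and general macrophage markers none was called by limma (median -0.19, 4 higher and 12 lower at an unadjusted p under 0.05), with Cd68 at 0.22, the Kupffer lectin Clec4f at -0.47 and Adgre1 at -0.52. Of 13 genes known from macrophages at scars 4 rose (30.8%), none fell and 11 were positive (median 0.6). Mmp12, macrophage elastase, had 772, 742 and 729 at 9 weeks, against 98.0, 80.1 and 176 at 3 weeks, a difference of 2.57 ± 0.28 log2 units (adjusted p = 9.11e-07). Gpnmb, a glycoprotein of lipid-laden macrophages, had 9776, 9442 and 9887 at 9 weeks, against 2784, 3028 and 2952 at 3 weeks (1.73 ± 0.06 log2 units, adjusted p = 2.66e-13). Tnfrsf12a, the TWEAK receptor, which hepatocytes and progenitors express as well, had 651, 764 and 673 at 9 weeks, against 157, 188 and 175 at 3 weeks (1.91 ± 0.12 log2 units, adjusted p = 9.75e-10). Cd9 rose by 1.12, and was at 0.85 and not called without the third array of 3 weeks. Lgals3 (0.62), Cd63 (0.28) and Spp1 (0.55) were not called.

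The 8 genes of MHC class II presentation had no call by limma, with 5 higher and 1 lower at an unadjusted p under 0.05; 6 were positive, with a median of 0.53 and a summed signal of 70276 to 71478 at 9 weeks and 50106 to 51634 at 3 weeks. Cd74, the invariant chain, had 19637, 20827 and 20536 at 9 weeks, against 14998, 14607 and 14212 at 3 weeks (0.48 ± 0.04 log2 units). Lymphocyte genes showed 1 call among 24 (4.17%), the granzyme Gzma, with 152, 238 and 228 at 9 weeks, against 416, 423 and 427 at 3 weeks (-1.0 ± 0.17 log2 units, adjusted p = 0.000102), which was lost without the first array of 9 weeks (-0.81) or the third of 3 weeks (-1.0). The T cell gene Cd3e overlapped (0.23). IgG-2a, an immunoglobulin heavy chain of plasma cells, had 7874, 7138 and 6987 at 9 weeks, against 923, 1074 and 1032 at 3 weeks, a difference of 2.84 ± 0.07 log2 units (adjusted p = 1.25e-14). Its mean was 5677 in normal liver at 0h and 6333 at 6 weeks, so its signal was lowest at 3 weeks. LOC362795, annotated as an immunoglobulin heavy chain and chosen after its values were seen, had 2322, 2360.1 and 2236 at 9 weeks, against 217, 50.8 and 201 at 3 weeks (3.95), and Igh-1a, chosen likewise, 6415, 6371 and 6443 at 9 weeks, against 2386, 2121 and 2001 at 3 weeks (1.56). Of 31 interferon-induced genes 2 rose (6.45%), the antiviral Rsad2 (1.77) and Oasl (1.66), and 1 fell (3.23%), Mx1 (-1.53).

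Transcripts of scar collagen were not higher at 9 weeks than at 3 weeks by this test. Of 30 fibrillar collagens and collagen-binding proteins 1 rose, 3 fell and 22 were negative (median -0.27). Col1a1 had 492, 518 and 602 at 9 weeks, against 727, 773 and 814 at 3 weeks (-0.51 ± 0.12 log2 units), and Col3a1 had 5605, 5261 and 5344 at 9 weeks, against 10254, 10995 and 11227 at 3 weeks (-1.0 ± 0.05 log2 units); neither was called, and Col3a1, at the edge of 2-fold, was called lower under 3 of 17 alternative settings. The arrays of 9 weeks lay below those of 3 weeks for both. Lum, lumican, a proteoglycan that spaces collagen fibrils, had 76.8, 67.5 and 67.0 at 9 weeks, against 561, 643 and 629 at 3 weeks, a difference of -2.86 ± 0.22 log2 units (adjusted p = 1.03e-08). Thbs2 fell by 2.36-fold (-1.24) and Efemp2, of elastic fibres, by 2.05-fold (-1.04); without the second array of 9 weeks they were at -0.93 and -0.92 and neither was called. Mgp, matrix Gla protein, an inhibitor of calcification, had 3802, 3733 and 3728 at 9 weeks, against 1615, 1776 and 1787 at 3 weeks (1.12 ± 0.06 log2 units, adjusted p = 1.42e-10). Of 24 genes of crosslinking and turnover 3 rose: Mmp12, the plasminogen activator Plat, with 462, 529.6 and 624 at 9 weeks, against 184, 246 and 227 at 3 weeks (1.24 ± 0.16 log2 units, adjusted p = 4.97e-06), and Loxl1 (1.0). Loxl1 lost its call without any 1 array of 9 weeks (0.9 to 1.1) and without the second array of 3 weeks (0.46). Timp1, the main inhibitor of matrix proteases, was at 858, 816 and 725 at 9 weeks, against 467, 508 and 438 at 3 weeks and not called (0.74).

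Of 14 basement membrane genes 3 rose and 1 fell. The laminin chain Lama5 had 209, 222 and 212 at 9 weeks, against 27.0, 77.7 and 103 at 3 weeks (1.56 ± 0.33 log2 units, adjusted p = 0.000841) and Sparcl1 rose by 1.16. Lama2 rose by 1.18, and was at 0.95 and not called without the third array of 3 weeks. Lamb3 fell (-1.07) on low signals of 74.1, 58.4 and 69.4 at 9 weeks, against 149, 180.5 and 147 at 3 weeks, and lost that call when any 1 of the 6 arrays was left out, with -1.13 to -0.98 and adjusted p between 0.0787 and 0.124 in limma. Stellate cell and myofibroblast genes gave 2 rises and 2 falls of 26, or 7.69% each. Ccn2, connective tissue growth factor, had 932, 860.4 and 945 at 9 weeks, against 278, 277 and 282 at 3 weeks (1.65 ± 0.11 log2 units, adjusted p = 1.33e-09), and Hand2, a factor of stellate cells, 206, 204 and 313 at 9 weeks, against 129.8, 39.4 and 78.2 at 3 weeks (1.47 ± 0.3 log2 units, adjusted p = 0.000652). Tgfbr2 (-1.3) and tropomyosin Tpm2 (-1.18) fell; Tgfbr2 was at -0.98 without the first array of 3 weeks and Tpm2 at -0.99 without the third of 9 weeks, neither called. Without the second array of 9 weeks 4 genes of this list rose in place of 2. Acta2, smooth muscle actin, was at 212, 200 and 212 at 9 weeks, against 290.4, 341 and 298 at 3 weeks and not called (-0.54).

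Bile duct and progenitor markers gave 2 rises and 2 falls of 20, or 10% each, with 14 positive (median 0.43). Ggt1, which hepatocytes of fetal and altered liver also express, had 698, 591 and 586 at 9 weeks, against 165, 151 and 142 at 3 weeks (1.93 ± 0.15 log2 units, adjusted p = 1.34e-08), and Cd24 had 318, 329 and 394 at 9 weeks, against 102, 140.1 and 112 at 3 weeks (1.44 ± 0.21 log2 units, adjusted p = 3.03e-05). Krt23 (-1.39) and Onecut1 fell, while Krt19 (0.61) and Epcam (0.44) were not called. None of the 20 endothelial markers was called by limma, with 0 higher and 7 lower at an unadjusted p under 0.05 and a summed signal of 14249 to 14829 at 9 weeks and 20005 to 20352 at 3 weeks. Lyve1, of sinusoidal endothelium, was at 2558, 2501 and 2399 at 9 weeks, against 4757, 5181 and 5026 at 3 weeks (-1.0 ± 0.05 log2 units), just short of the fold. Lyve1 was called under 5 of 17 alternative settings, and Pecam1 overlapped between the groups (-0.01).

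**Figure D4:**
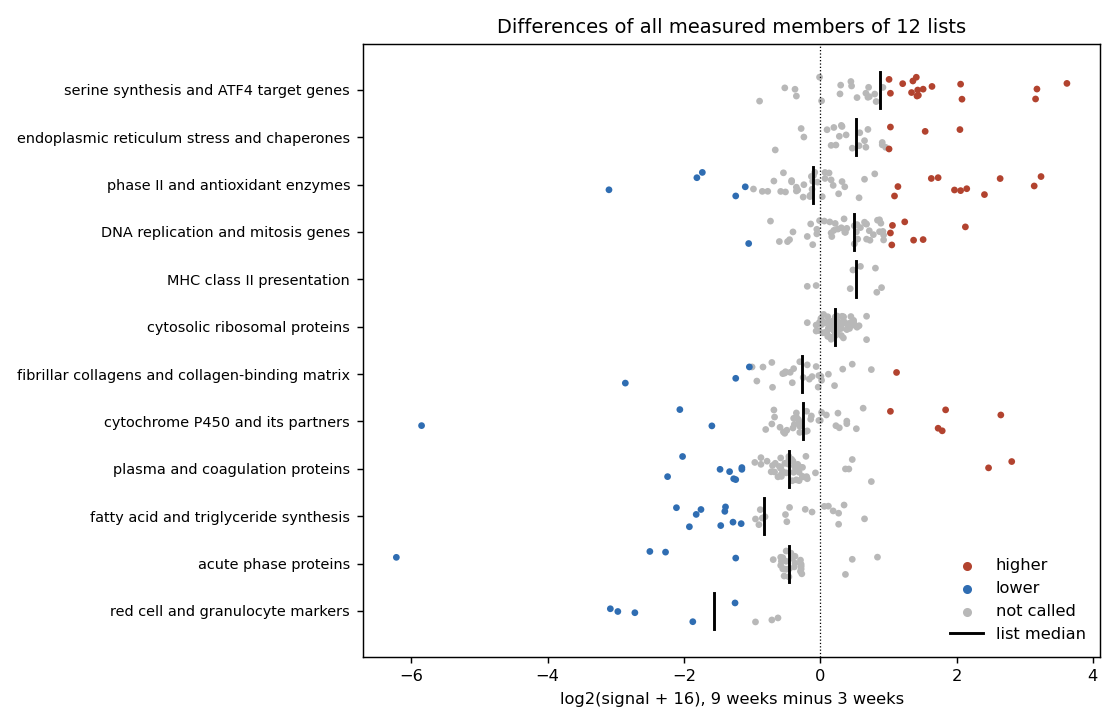
Difference in log2(signal + 16), 9 weeks minus 3 weeks, of every measured member of 12 lists (rows); each point is 1 gene, red where called higher, blue where called lower and grey where not called, and the bar is the median of the list. Serine synthesis and ATF4 target genes sit mostly right of 0 (median 0.87), and red cell and granulocyte markers lie wholly left of it (median -1.56).

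The circadian clock genes were split between both directions, 4 up and 3 down of 18, or 22.2% and 16.7%. Nr1d1, a nuclear receptor that represses Bmal1, had 748, 817 and 815 at 9 weeks, against 116, 90.9 and 183 at 3 weeks (2.52 ± 0.18 log2 units, adjusted p = 6.17e-09). Bhlhe41 had 259, 336 and 283 at 9 weeks, against 73.6, 36.5 and 69.7 at 3 weeks (2.05 ± 0.25 log2 units, adjusted p = 4.07e-06), and the clock output Dbp 390.3, 469 and 415 at 9 weeks, against 172, 169.5 and 155 at 3 weeks (1.28 ± 0.16 log2 units, adjusted p = 4.11e-06). Nr1d2 rose by 1.05, with its second probe set at -0.18; it was at 0.44 with the mean of its kept probe sets and 0.97 with a pseudocount of 64, neither called. Per2 had 203, 178 and 175 at 9 weeks, against 599.5, 679 and 592 at 3 weeks (-1.67 ± 0.14 log2 units, adjusted p = 2.83e-08). Npas2 (-1.29) and Cry1 (-1.17) fell, and Bmal1 was negative and not called (-0.82). These genes cycle over the day, the labels do not give the hour of collection, and a difference in hour between the groups was not tested.

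Further lists are set beside the 3.01% of all genes called higher and the 2.76% called lower. In iron handling 2 of 21 fell (9.52%), the ferrireductase Steap4 (-1.4) and Hfe (-1.09), and hepcidin Hamp was positive and not called (0.84). Of 38 genes of junctions and the cytoskeleton 3 rose (7.89%), Anxa7 (1.65), the tubulin Tubb6 (1.41) and S100a10 (1.08). S100a10 was at 0.96 and not called without the second array of 3 weeks. None of 49 respiratory chain genes was called by limma (median -0.09, or 0.03 after quantile normalization, 10 higher and 22 lower at an unadjusted p under 0.05). None of 64 cytosolic ribosomal protein genes was called either (median 0.22, or 0.39 after quantile normalization, 49 higher and 1 lower at that p), and 59 were positive. Of 8 pancreas markers Cpb1 (-1.69) and Cela1 (-1.19) fell (25%). Both were dim, with means of 48.9 and 159 at 9 weeks, against 185 and 386 at 3 weeks. The summed signal of the list was 24290 to 26265 at 9 weeks and 30110 to 32125 at 3 weeks, and nearly all of it came from members that were not called. Whether pancreas lay beside the pieces taken was not tested. Of 8 markers of fat, muscle, kidney, gut and mesothelium 1 rose (12.5%), Fabp2 (1.08). Fabp2 was not called without the second array of 9 weeks (0.96) or the third of 3 weeks (0.98).

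Most called genes stood nearer to 9 weeks than to 3 weeks at 6 weeks. For the 311 genes that rose, the mean at 6 weeks lay nearer to 9 weeks than to 3 weeks in 274 (88.1%), and for the 285 that fell in 223 (78.2%), beside 65.4% of all genes tested. It lay between the 2 means for 185 of the genes that rose and 150 of those that fell, and beyond the mean of 9 weeks for 117 and 123. Akr1b8 and Fam111a were exceptions among the largest rises. Akr1b8 had mean signals of 166 at 3 weeks, 296 at 6 weeks and 1691 at 9 weeks. Fam111a, a protease that shields DNA replication, had 1276, 1208 and 1081 at 9 weeks, against 96.2, 119 and 122 at 3 weeks (3.23 ± 0.15 log2 units, adjusted p = 1.92e-11), with a mean of 112 at 6 weeks. Acot1, by contrast, was at 3845 at 6 weeks and Trib3 at 3902.

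**Figure D5:**
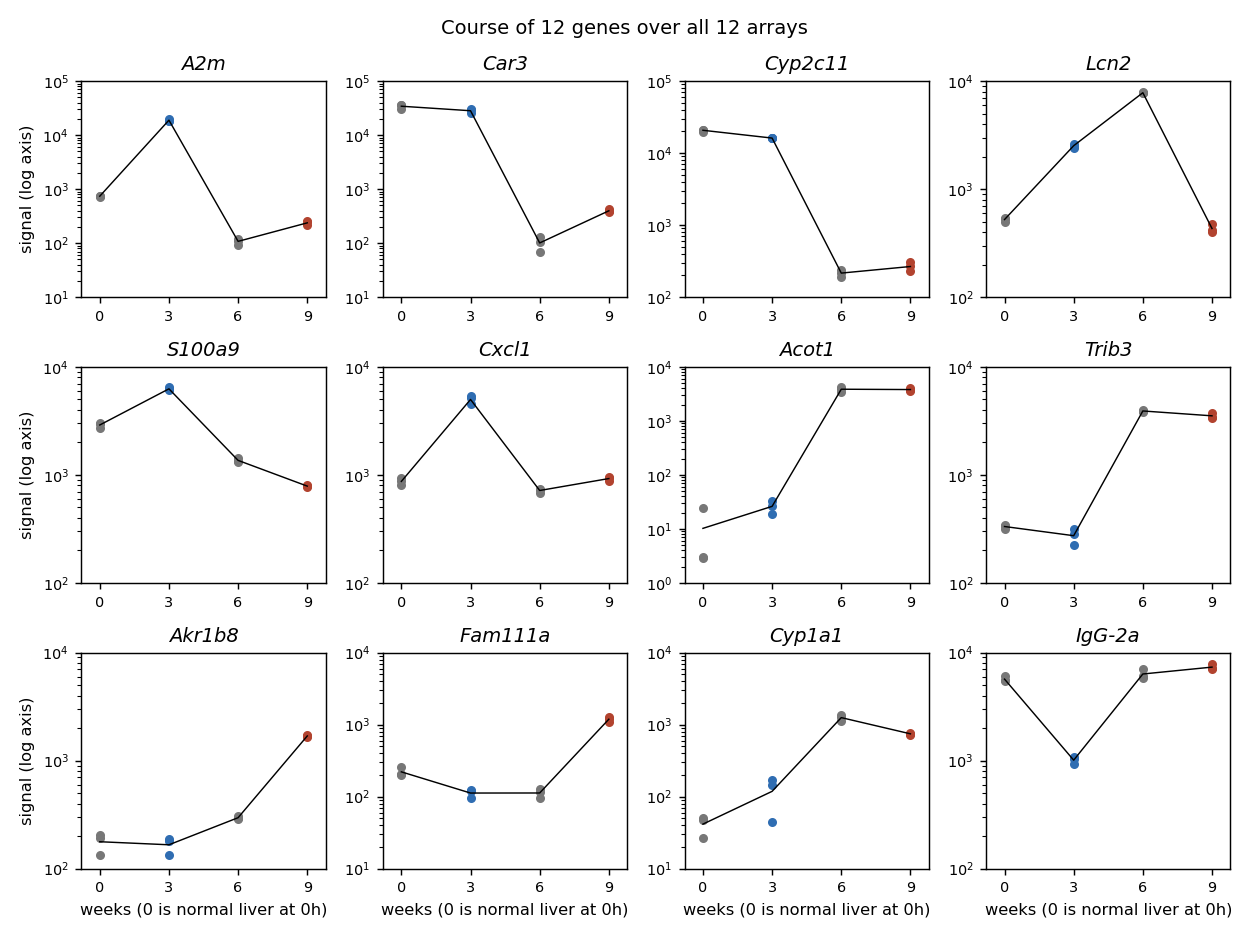
Signal (log axis) of 12 genes in all 12 arrays over time (0 is normal liver at 0h, then 3, 6 and 9 weeks); points are arrays, 9 weeks in red, 3 weeks in blue and the others grey, and the line joins the means. A2m and Cxcl1 are highest at 3 weeks, Acot1 and Trib3 are high at 6 and 9 weeks, and Akr1b8 and Fam111a are highest at 9 weeks.

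The called genes whose mean at 6 weeks lay farthest outside the range of both times are named here, with locus names left out. Lcn2 was at 2514, 2628 and 2421 at 3 weeks, 7875, 7804 and 7706 at 6 weeks and 399, 422 and 476 at 9 weeks, so it peaked at 6 weeks before it reached its lowest level of the 3 times. Cyp1a1 (mean 1250 at 6 weeks), the deadenylase Noct (1268), the nuclear receptor Nr4a2 (497) and Slc38a2 (9184) were the other 4 farthest above the range. Noct rose by 1.08 between 3 and 9 weeks and Nr4a2 by 1.04; Noct was at 1.0 without the first array of 9 weeks and Nr4a2 at 0.85 without the first of 3 weeks, neither called. Farthest below it were Car3 (101), Gzma (49.6), Pla2g2a (38.5), Plac8, a gene of activated leukocytes (769.7, against 2646 at 9 weeks and 5712 at 3 weeks), and Sez6 (37.4, against 148 at 9 weeks and 809 at 3 weeks). Over the called genes other than those with locus names, the mean at 6 weeks was at least 1 log2 unit above the range for 3 and below it for 17.

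Set against normal liver at 0h, the called genes took different routes. Of the 311 that rose, normal liver lay beyond the mean of 3 weeks, on the low side, for 144 (46.3%), between the means for 154 (49.5%) and above the mean of 9 weeks for 13 (4.18%). Of the 285 that fell, normal liver lay above the mean of 3 weeks for 112 (39.3%), between the means for 151 (53%) and below the mean of 9 weeks for 22 (7.72%). Over all genes tested the shares were 43.7%, 30.6% and 25.7% in the same order. With locus names left out, normal liver lay between the 2 times by at least 1 log2 unit on both sides for 1 gene that rose and 7 that fell. The gene that rose was Cxcl14, at 118 in normal liver. Among those that fell, A2m was at 739.6 in normal liver, between 237 at 9 weeks and 18865 at 3 weeks. RatNP-3b (238), Defa5 (234), Hdc (411) and S100a9 (2894) lay between as well. Car3 and Cyp2c11, in contrast, had 34179 and 20718 in normal liver and were near those levels at 3 weeks.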

How the data were processed

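Liver RNA from 12 samples was hybridised as biotin-labelled cRNA to Affymetrix Rat Genome 230 2.0 arrays. Per the file headers, the authors deposited a signal for each array, an intensity with a linear scale; the program was GCOS 2.0 per the submitters' processing notes, with settings not given in the sources used here. The trimmed mean (2% at each end) was 500.2 on every array, and the deposited series table held the same values within 0.1. Groups came from the labels, and 0 sample columns stayed unmatched.

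Of 31099 probe sets, 57 controls, 11134 without a symbol and 23 with several were left out; of the other 19885, symbols were current for 15165, updated through RefSeq by synonym for 2960 or accession for 244, and kept from the file for 1516. Probe sets stayed in when their average over the 12 arrays passed the 40th percentile (log2 of 6.513, a signal of 75.3), and the brightest stood for its gene, which gave 10320 genes. The 4 group means were fitted to log2(signal + 16) with limma 3.58.1 in R 4.3.3 (lmFit, eBayes with an intensity trend, 8 residual degrees of freedom, median residual SD 0.131), tested on simulated data first. Calls need p under 0.05 after Benjamini-Hochberg adjustment across the 10320 genes, and 1 log2 unit. An exact permutation test of 3 against 3 arrays cannot go below p = 0.1 and was not used. Tables and figures used matplotlib 3.10.9, numpy 2.4.6 and pandas 2.3.3 in Python 3.11.15.

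Genes named are the 12 largest rises and 12 largest falls with a signal of at least 200 in the brighter group, up to 4 called members a direction in each of 42 lists, the 5 with means at 6 weeks farthest above and the 5 farthest below the range of 3 and 9 weeks, and the 5 largest changes a direction with normal liver between both by 1 log2 unit. Other list members may be given with values, and locus names do not qualify. The comparison, lists and rules were chosen with earlier results of these data known, so the lists are described by counts and medians and not tested. Alternatives changed the pseudocount, filter, scaling, probe set rule, arrays fitted, variance trend, source table and replicate block, and left out each array in turn. Results of some genes are not reported here.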

Additional observations from a re-analysis of the deposited data

How the results depend on the processing

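The counts of 311 genes higher and 285 lower stayed within 1.5 times under 17 alternatives. They were 346 and 309 with a pseudocount of 1, 233 and 204 with 64, 395 and 411 without a filter, 227 and 196 with the 60th percentile, 319 and 288 after quantile normalization, 306 and 278 without a variance trend, 278 and 301 with the mean of a gene's kept probe sets, 311 and 282 in a fit over the 6 arrays alone and 311 and 285 with the series table. Without 1 array they ran between 303 and 329 and between 281 and 292; without the third array of 3 weeks 269 of the 311 genes were called again, the fewest of these. Centring each array on its median raised the median of all genes to 0.13 and gave 370 and 249, or 59.8% higher in place of 52.2%. Deviations of arrays with the same replicate number correlated at 0.0613, 0.0313 and 0.124, and those with unlike numbers at -0.0822 to 0.0261. Every value for the same number was thus above every value for unlike numbers, though all were low. The main fit did not pair the arrays, and with the replicate block the counts were 312 and 285. Of 202 called genes followed through the alternatives, 157 were called under every alternative that tested them, 45 lost a call under at least 1, and 0 reversed. The arrays show the spread of technical replicates alone, and differences under 2-fold in dim genes cannot be resolved by them.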

Other observations

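Some called genes outside the lists shared a cell type or a cell compartment. They were chosen after their values were seen and carry no test. Called lower were 3 genes known from mast cells and eosinophils, with no statement on those cells as a group: the mast cell carboxypeptidase Cpa3 had 89.0, 135 and 126 at 9 weeks, against 298, 311 and 357 at 3 weeks (-1.36), the mast cell protease Mcpt9 122, 146 and 163 at 9 weeks, against 369, 346 and 341 at 3 weeks (-1.21), and the eosinophil granule protein Prg2 51.1, 59.5 and 9.4 at 9 weeks, against 131, 119 and 72.4 at 3 weeks (-1.26; -0.76 and not called without the third array of 9 weeks, and -0.74 and not called with a pseudocount of 64). Alox15, the arachidonate lipoxygenase, had 14.8, 73.5 and 60.6 at 9 weeks, against 414, 471 and 436 at 3 weeks (-2.94), and the alarmin Il33 had 1366, 1214 and 1294 at 9 weeks, against 4307, 4544 and 4310.1 at 3 weeks (-1.75). The platelet chemokines Pf4 (-1.18) and Ppbp (-1.2) were lower as well. Hdc, which makes histamine, is given among the largest falls.

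Several single genes with roles in secretion were called higher; those that were not called were not gathered. Fkbp11, a folding enzyme of secretory cells, had 4712, 4714 and 4764 at 9 weeks, against 1078, 874 and 902 at 3 weeks (2.3). Bhlha15, a factor of secretory cells, had 537, 568 and 526 at 9 weeks, against 105, 85.1 and 86.8 at 3 weeks (2.37), the granule GTPase Rab3d 2.46, the cargo receptor Tmed3 1.98, the translocon subunit Sec61a1 1.2 (0.76 with the mean of its kept probe sets), the oligosaccharyltransferase subunit Dad1 1.07 and the membrane-bound factor Creb3 1.18. Vnn1, pantetheinase, a known target of PPAR-alpha, had 4123, 4108 and 3946 at 9 weeks, against 1010.3, 1004 and 889.9 at 3 weeks (2.05).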
